A study of Mus musculus with 6 samples.

Results

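Accessible chromatin lying in ERVL and MaLR elements, LTR retrotransposons of the mouse genome, was followed across 3 cultures of primary lung fibroblasts. A region was taken as a member when the annotation in the authors' files placed it in a repeat of class LTR and of a family whose name starts with ERVL (ERVL, or ERVL-MaLR for the MaLR elements). By this rule 2090 of 64217 regions in the comparison of plastic with 32 kPa PDMS were members, as were 43 of the 2121 regions listed as more accessible on 32 kPa PDMS than on 0.2 kPa PDMS and 61 of the 2114 listed for plastic over 0.2 kPa PDMS. The rule uses the annotation of a region and no accessibility value.

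The cells came from lungs of Col1a1-GFP transgenic mice, which mark collagen-producing cells, and were sorted for GFP. They were grown for 8 days in medium with serum on collagen I, on 32 kPa silicone (PDMS), on tissue-culture plastic or on soft 0.2 kPa PDMS, and open DNA was tagged with a transposase and sequenced (Omni-ATAC-seq). There were 2 libraries per culture and 6 in all, each of 50000 cells, and all cultures shared the transgene, the coating and the time. The sources used here do not give the age or sex of the mice, or say if each library had its own animals, so the authors' p-values may measure technical spread only. Values are the authors' mean per culture in log2 normalised reads, called the level below, and a fold is a difference of such log2 means. The spread between libraries and the depth of each are unknown. The sides of the tables against 0.2 kPa carry no culture name and were read from levels they share with the named columns of the other comparison.

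LTR retrotransposons are relics of retroviral insertions. Each intact copy carries a long terminal repeat at both ends, which holds promoter and enhancer sequence, around an internal part that encodes the proteins of the element. ERVL elements are an old class shared across placental mammals, and their MaLR relatives are nonautonomous. In the mouse, MERVL and its MT2 repeat are known for their activity in the early embryo, where they drive chimeric transcripts, and MT and ORR1 repeats of the MaLR group serve as promoters in oocytes. KRAB zinc finger proteins with TRIM28 and SETDB1 are among the factors known to silence LTR retrotransposons, beside other histone-modifying enzymes and DNA methyltransferases. Which of them act on these copies in lung fibroblasts was not tested. Single copies can act as enhancers or promoters of nearby genes.

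Promoter regions of fibroblast markers were present in the comparison of plastic with 32 kPa. Of 9 fibroblast marker genes, 9 had a region and 8 had a promoter region, with a median promoter level of 4.61. Of the other lineages, 3 of 4 epithelial, 4 of 4 endothelial and 2 of 4 leukocyte markers also had some region. No epithelial or leukocyte marker had a promoter region, and 2 of 4 endothelial markers had one, at a median of 3.25.

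Members that lay at annotated transcription starts are shown first by sequence, because there the open region and a promoter can be read together. The RefSeq start windows (GRCm38.p6, 250 bases before to 50 after a gene's start) overlapped 17 members in 16 windows, and 16 of these 16 windows belonged to long noncoding RNA genes. In 11 of the 16 the start base itself lay inside the accessible region. The first window below held the only such region listed against 0.2 kPa, and the other 3 were those of highest level among the windows with an AP-1 motif. Capitals mark the bases inside the accessible region, and each window reads along the strand of its gene.
Gm35992 at chr1:92379307-92379606, plus strand: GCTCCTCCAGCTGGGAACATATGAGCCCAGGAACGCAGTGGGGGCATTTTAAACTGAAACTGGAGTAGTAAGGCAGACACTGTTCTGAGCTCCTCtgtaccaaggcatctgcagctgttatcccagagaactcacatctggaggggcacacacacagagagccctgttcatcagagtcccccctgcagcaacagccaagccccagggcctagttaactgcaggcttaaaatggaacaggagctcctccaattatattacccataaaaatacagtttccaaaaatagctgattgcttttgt
Gm30657 at chr5:118413532-118413831, minus strand: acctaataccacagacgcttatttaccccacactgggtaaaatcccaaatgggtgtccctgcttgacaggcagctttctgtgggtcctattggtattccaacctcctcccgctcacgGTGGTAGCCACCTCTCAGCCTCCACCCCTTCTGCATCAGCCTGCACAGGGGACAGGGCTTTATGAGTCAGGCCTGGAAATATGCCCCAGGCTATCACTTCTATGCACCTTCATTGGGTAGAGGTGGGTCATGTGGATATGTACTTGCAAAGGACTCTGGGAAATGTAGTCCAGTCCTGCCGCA
Gm34026 at chr8:106399795-106400094, plus strand: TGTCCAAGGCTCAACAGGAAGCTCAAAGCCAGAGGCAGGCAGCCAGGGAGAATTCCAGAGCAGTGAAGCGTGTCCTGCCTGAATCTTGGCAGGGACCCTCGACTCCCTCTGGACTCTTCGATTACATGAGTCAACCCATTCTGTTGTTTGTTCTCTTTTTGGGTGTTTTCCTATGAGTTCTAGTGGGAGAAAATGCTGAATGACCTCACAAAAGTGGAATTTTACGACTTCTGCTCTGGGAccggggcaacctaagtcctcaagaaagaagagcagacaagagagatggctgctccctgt
Gm36367 at chr9:113295757-113296056, plus strand: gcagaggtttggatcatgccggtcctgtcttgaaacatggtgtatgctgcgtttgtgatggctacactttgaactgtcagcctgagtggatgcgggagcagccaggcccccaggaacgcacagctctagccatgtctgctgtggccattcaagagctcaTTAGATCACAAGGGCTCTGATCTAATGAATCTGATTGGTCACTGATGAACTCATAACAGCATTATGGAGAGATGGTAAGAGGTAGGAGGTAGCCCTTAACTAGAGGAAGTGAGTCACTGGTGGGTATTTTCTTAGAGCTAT

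The ORR1E region at Gm35992 (mm10, chromosome 1, 92379128 to 92379401; all coordinates are on this build) reached 6.33 on plastic against 5.17 on 0.2 kPa (fold 1.16, at an FDR of 0.00401 in the authors' deposited table). Only its right end entered the window, at positions -250 to -156 from the start, and in the authors' annotation the nearest gene was Mir6900, 85.3 kb away. Its level was 6.32 on plastic and 5.91 on 32 kPa in the other comparison. The MLT1J1 region at Gm30657 covered the start base and had levels of 5.81 on plastic and 5.86 on 32 kPa. Levels at the MLT1K region of Gm34026 were 5.18 on plastic and 5.21 on 32 kPa, and those at the ORR1E region of Gm36367 were 4.72 and 4.89. Each of these 3 regions was as open on plastic as on 32 kPa to within 0.17 on the log2 scale, and none of them was listed against 0.2 kPa.

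A search for 6 short motifs on both strands described these windows further. The AP-1 motif TGANTCA, bound by Fos and Jun factors, was in 5 of the 16 windows (31.2%), against 7.81% of all 32851 start windows, 9.31% of the 11588 windows of long noncoding RNA genes and 9.86% of the 1541 of those that overlapped any region of the comparison. Each of the 5 matches lay within the accessible bases. They began at -71 in Gm30657, -124 in Gm34026, 19 in Gm36367, 22 in 5033421B08Rik and 12 in Gm14051, counted from the start base as 1. The TEAD motif GGAATG was also in 5 of 16 windows (31.2%), against 14.7% of all windows and 14.5% of the noncoding windows that overlapped a region. Unlike the AP-1 matches, those of TEAD in Gm34657, Gm46366 and Gm11454 lay outside the accessible bases. Only those in Gm26797 and Gm52865 lay within them. Against the same backgrounds, the RUNX motif TGTGGT was in 2 of 16 (12.5%, against 16.8% and 13.8%), and CCAAT of NF-Y in 7 of 16 (43.8%, against 37.4% and 35%). CACGTG, the E-box, was in 2 of 16 (12.5%, against 7.15% and 10.3%) and TATAAA in 1 of 16 (6.25%, against 13.6% and 6.62%). In Gm52865 a TEAD match at -26 and a CCAAT match at -22 overlap. These are counts over few windows, without a test, and a match is no evidence that a factor was bound.

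ERVL and MaLR regions were weaker and farther from genes than regions at large. Their median level was 3.96 on plastic (quartiles 3.46 and 4.61) and 3.82 on 32 kPa (3.33 and 4.53), against 4.24 and 4.17 over all regions. The highest member reached 7.43 on plastic, while the highest of all regions reached 13.80. They were a little shorter, with a median of 164 bp against 177 bp. Of the 2090 members, 1308 were intergenic and 782 intronic, which follows from the annotation, since a region in a promoter or an exon is not given a repeat. Their median distance to the nearest transcription start was 39.2 kb against 18.8 kb over all regions, and 524 (25.1%) lay more than 100 kb away, against 16% of all regions. All regions included 15268 within 1 kb of a start, against 5 members, so the contrast in distance also follows in part from the annotation. Levels and distances were not compared with intergenic and intronic regions alone. Levels of ERVK regions were lower by median on both cultures (3.89 on plastic and 3.67 on 32 kPa), and those of ERV1 regions were 3.95 and 3.90. Median distances were 43.9 kb for ERVK and 29.9 kb for ERV1 regions, so distance from genes was not particular to ERVL and MaLR regions. The sources used here do not say how reads matching several repeat copies were treated, and levels of young, near-identical copies are uncertain for that reason.

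**Figure D1:**
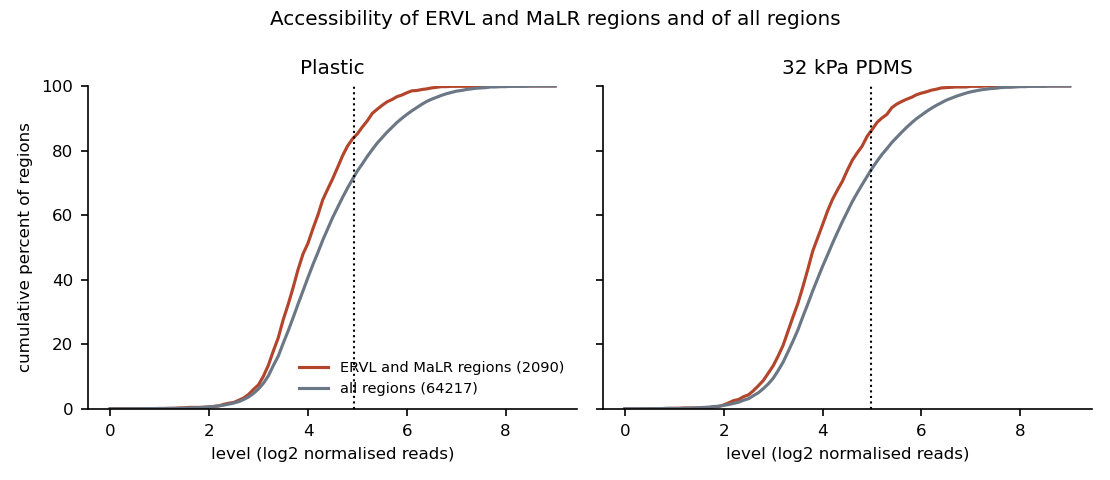
Cumulative percent of regions at or below each level (log2 normalised reads) on plastic (left) and 32 kPa PDMS (right), for 2090 ERVL and MaLR regions and for all 64217 regions. The members' curve lies to the left, and the dotted line marks the lowest level of any region listed against 0.2 kPa, 4.94 on plastic and 4.97 on 32 kPa.

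The members belonged to 167 named repeats. RMER15, a rodent ERVL repeat, was the most frequent with 147 regions, followed by the MaLR repeats MTD (117), ORR1E (102), ORR1F (93) and MTC (63). RMER15 regions had median levels of 4.17 on plastic and 4.08 on 32 kPa, above the members' medians, and MTD regions 3.74 and 3.61, below them. MLT1 repeats, found across placental mammals, made up 536 regions at medians of 4.09 on plastic and 3.99 on 32 kPa. MTA to MTE gave 428 regions (3.8 and 3.73) and ORR1 461 regions (3.84 and 3.74). Repeats of the MT2 and MERVL group, formed by the start of the repeat name, gave 119 regions at 3.85 and 3.76. Of these, 39 were internal MERVL_2A sequence and 39 were MT2A. Copies active in the early embryo were not told apart from their relatives in this group. The remaining ERVL repeats (MLT2, LTR, MER and others, RMER15 among them) gave 546 regions at 4.05 and 3.94. Quartiles of these groups overlap widely. Internal parts made up 338 of the 2090 regions, with medians of 4.0 on plastic and 3.85 on 32 kPa, close to those of the LTR parts (3.96 and 3.82).

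The most accessible members were single copies in introns and between genes. A LTR86B2 copy in an intron of the noncoding gene Gm6994 (chromosome 14, 77484954 to 77485506) had the highest level, 7.43 on plastic and 7.36 on 32 kPa. An intergenic RMER15 copy 132.1 kb upstream of Pwp1 (chromosome 10, 85739569 to 85739900) had 7.36 and 7.25. A LTR53B copy lay 2.95 kb upstream of the nearest annotated start of Sulf1, in the first intron of a longer Sulf1 transcript (chromosome 1, 12715404 to 12715790), and had 6.84 on plastic and 6.96 on 32 kPa. Sulf1 encodes an extracellular sulfatase that trims heparan sulfate. They were followed by a MLT1F1 copy 20.6 kb from 1700016G22Rik (6.88 on plastic and 6.86 on 32 kPa) and an ORR1D2 copy in an intron of Uggt2 (6.79 and 6.92), an enzyme of glycoprotein quality control. Among MT2 repeats the highest was a MT2A copy 2.05 kb upstream of Pycrl, with 6.56 and 6.30. None of these 6 copies differed between plastic and 32 kPa by more than 0.26. By the authors' distance to the nearest gene, which does not count the noncoding starts shown above, 5 of 2090 members were within 1 kb of a start. The highest of them by mean level of both cultures was a MLT1F1 copy 0.677 kb into 1600019K03Rik (5.05 on plastic and 5.02 on 32 kPa). A RMER10B copy 0.727 kb into Chrna1os was higher on plastic (5.16) and lower on 32 kPa (4.45).

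Fibroblasts on 32 kPa PDMS had 43 members listed as more accessible than on 0.2 kPa PDMS, 30 of ERVL-MaLR and 13 of ERVL. The median level over these was 5.69 on 32 kPa and 4.57 on 0.2 kPa, and the median fold was 1.12, a 2.17-fold difference, the same as over all 2121 listed regions (1.12). The authors' deposited table held no region in the other direction and no fold below 1, so the direction is fixed by the list. MTD gave 8 of the 43 and RMER15 4, and 31 different repeats were represented. Of 18 intronic members, 11 lay in the gene that was also the nearest by start. More cells with an open copy and more opening per cell cannot be told apart in these bulk libraries.

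Copies that could have been listed give the base for these counts. On 32 kPa, 303 of 2090 members (14.5%) reached the lowest listed level of 4.97, against 26.5% of all regions. Of the 303, 42 overlapped a region listed for 32 kPa, which is 13.9%, against 12.5% of all 17026 regions at such levels. Pooled over levels, that share is near the background, and shares by band of level are given below. By comparison 8 of 112 ERVK regions (7.14%) and 7 of 63 ERV1 regions (11.1%) were listed. Among the repeat groups MTA to MTE had 15 of 60 (25%) and MTD alone 7 of 19 (36.8%), while MLT1 had 10 of 101 (9.9%), ORR1 4 of 40 (10%) and MT2 with MERVL 1 of 10. Without MTA to MTE the members' share was 11.1%, below that of all regions. Internal parts had 11 of 49 (22.4%) and LTR parts 31 of 254 (12.2%). No test was made of these shares, since regions are not replicates and several groups hold few of them.

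**Figure D2:**
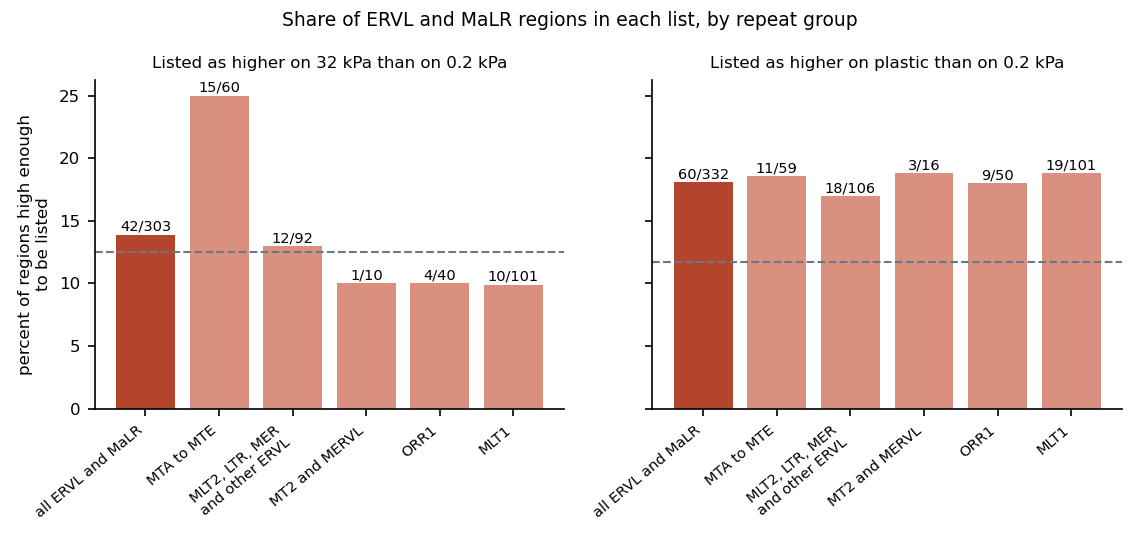
Percent of regions high enough to be listed that overlapped a region listed as higher on 32 kPa (left) or on plastic (right) than on 0.2 kPa, for all ERVL and MaLR regions and for each repeat group. Numbers above the bars are listed over high enough, and the dashed line is the share of all regions, 12.5% for 32 kPa and 11.7% for plastic.

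Most of the largest folds on 32 kPa were at copies with low levels on 0.2 kPa. A fold is the difference from that level, so this follows in part from its definition. A MLT2B1 copy in the first intron of Pde8b, a cAMP phosphodiesterase gene (chromosome 13, 95189234 to 95189526), had 5.32 on 32 kPa against 3.69 on 0.2 kPa (fold 1.62, at an FDR of 0.0093 in the authors' deposited table). It was at 4.68 on plastic, and its fold was the largest among the 43. A MLT1F2 copy in intron 8 of Fam172a had 5.20 against 3.64 (fold 1.56, FDR = 0.0145), and an internal RMER15 copy 47.6 kb from Olfr1402 had 5.77 against 4.25 (fold 1.52, FDR = 0.00471), both from the authors' deposited table. A MTD copy 335.7 kb upstream of Sall3 (fold 1.43), a MLT1C copy 92.4 kb upstream of Atp8b1 (1.42) and an internal MTD part in the first intron of Xkr4 (1.34) followed in the authors' deposited table. A MLT1H copy 233.4 kb from Akain1 had 6.11 on 32 kPa against 4.78 on 0.2 kPa (fold 1.33, at an FDR of 0.00496 in the authors' deposited table). Of the copies named here, those near Pde8b and Akain1 were the lowest on plastic relative to 32 kPa, at -0.64 and -0.61.

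The 3 listed copies of highest level lay in introns. The LTR53B copy at Sulf1 had 6.96 on 32 kPa against 5.77 on 0.2 kPa (fold 1.19, at an FDR of 0.00281 in the authors' deposited table). An ORR1D2 copy in intron 33 of Uggt2 had 6.92 against 5.84 (fold 1.08, at an FDR of 0.00328 in the authors' deposited table). Dst, which encodes a linker of actin, microtubules and intermediate filaments, held MTD copies in introns 8 and 72. They had 6.91 on 32 kPa against 5.88 on 0.2 kPa (fold 1.03, FDR = 0.0049) and 5.53 against 4.45 (fold 1.08, FDR = 0.0394) in the authors' deposited table. Another MTD copy lay in intron 6 of Slc6a17, a neurotransmitter transporter gene (chromosome 3, 107488707 to 107488988), with 6.35 against 5.04 (fold 1.30, at an FDR of 0.00301 in the authors' deposited table). The only listed member of the MT2 and MERVL group was internal MERVL_2A sequence 154.2 kb upstream of Galnt13, with 5.59 on 32 kPa against 4.34 on 0.2 kPa (fold 1.25, at an FDR of 0.0206 in the authors' deposited table).

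**Figure D3:**
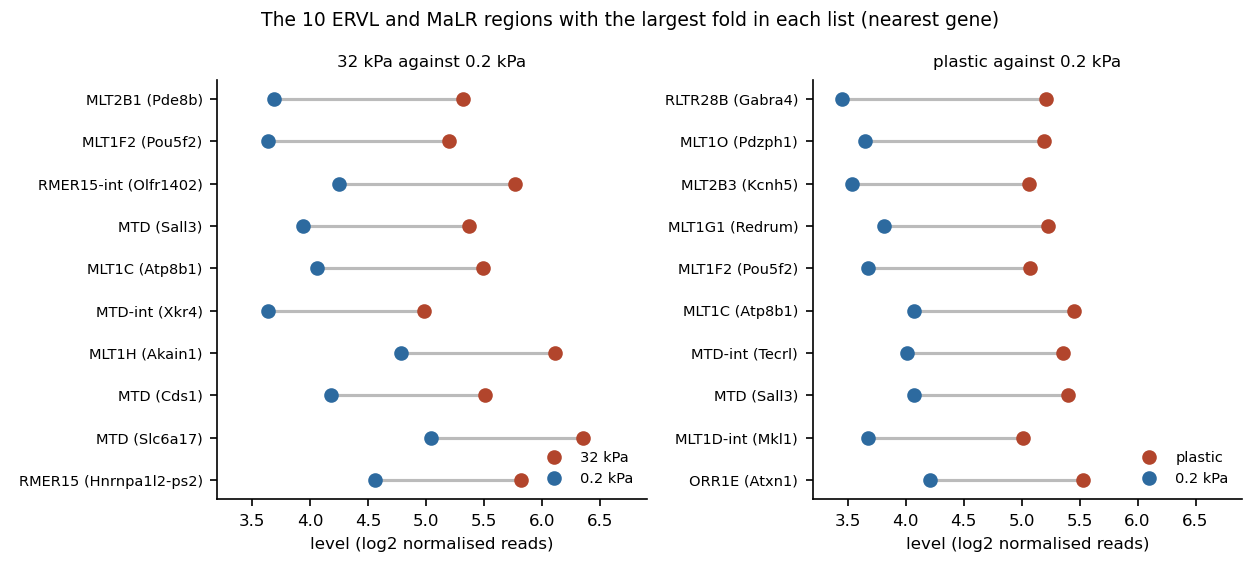
Levels (log2 normalised reads) of the 10 members with the largest fold in the lists for 32 kPa (left) and plastic (right), on the stiffer culture (red) and on 0.2 kPa (blue), labelled by repeat and nearest gene. Folds run down to 1.27 in the left panel and 1.33 in the right.

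Fibroblasts on plastic had 61 members listed as more accessible than on 0.2 kPa PDMS, 42 of ERVL-MaLR and 19 of ERVL. The median level was 5.58 on plastic and 4.42 on 0.2 kPa, with a median fold of 1.16 (a 2.23-fold difference), against 1.12 over all 2114 listed regions. RMER15 and MTD gave 6 regions each, and 41 repeats were represented. Of 332 members (15.9%) that reached the lowest listed level of 4.94, 60 overlapped a listed region, which is 18.1%, against 11.7% of all 18002 regions at such levels. The repeat groups lay close together here, from 17% (18 of 106, the remaining ERVL repeats) to 18.8% (19 of 101 for MLT1 and 3 of 16 for MT2 with MERVL). ERVK regions had 22 of 140 (15.7%) and ERV1 regions 22 of 73 (30.1%). Both comparisons use the same 0.2 kPa libraries, so their lists are not independent, and the difference between their shares was not tested.

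The share listed varied with level and with distance. Between levels of 5.5 and 6, 22 of 80 members (27.5%) were listed on plastic against 15.2% of all regions, and 17 of 70 (24.3%) on 32 kPa against 14.5%. Under 5.5 it was 26 of 207 (12.6%) against 8.84% on plastic, and 14 of 185 (7.57%) against 6.51% on 32 kPa. From 6 to 6.5 it was 9 of 32 (28.1%) against 14.1% on plastic, and 8 of 37 (21.6%) against 15.9% on 32 kPa. At 6.5 or above, with few members, it was 3 of 13 (23.1%) against 11.3% on plastic. On 32 kPa it was 3 of 11 (27.3%) against 19.7% there. Within 10 kb of a start 2 of 48 members (4.17%) were listed on plastic, against 10.4% of all regions there, and beyond 100 kb 24 of 94 (25.5%) against 16.7%. On 32 kPa the same classes gave 4 of 51 (7.84%) against 12.6%, and 14 of 86 (16.3%) against 12%. Intronic members had 20 of 115 (17.4%) on plastic and 17 of 102 (16.7%) on 32 kPa, against 12.5% and 12.7% of all intronic regions. Intergenic members, the larger class, had 40 of 217 (18.4%) on plastic and 25 of 201 (12.4%) on 32 kPa. The shares of all intergenic regions were 13% and 11.6%.

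**Figure D4:**
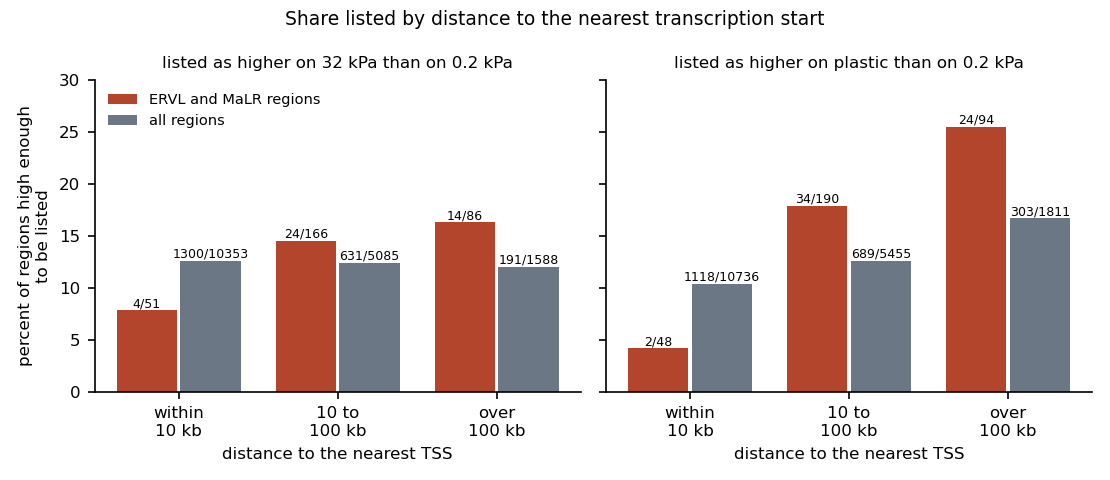
Percent of regions high enough to be listed that overlapped a listed region, by distance to the nearest transcription start (TSS), for ERVL and MaLR regions (red) and all regions (grey). The members' share is lowest within 10 kb (7.84% on 32 kPa and 4.17% on plastic) and highest beyond 100 kb (16.3% and 25.5%).

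On plastic the largest folds also lay at copies with low levels on 0.2 kPa, which again follows in part from the definition of a fold. A RLTR28B copy in an intron of Gabra4, a GABA receptor subunit gene (chromosome 5, 71618599 to 71618874), had 5.21 on plastic against 3.45 on 0.2 kPa (fold 1.76, at an FDR of 0.00591 in the authors' deposited table). A MLT1O copy 217.6 kb from Pdzph1 (fold 1.54), a MLT2B3 copy in the last intron of the potassium channel gene Kcnh5 (1.52) and a MLT1G1 copy 166.5 kb upstream of Redrum (1.43) came next in the authors' deposited table. On 32 kPa these 4 copies had levels of 4.99, 4.87, 4.77 and 4.58 in that order. Internal MLT1D sequence lay in the first intron of Mkl1 (Mrtfa), the actin-controlled partner of SRF (chromosome 15, 81175748 to 81175992). It had 5.01 on plastic against 3.68 on 0.2 kPa (fold 1.33, at an FDR of 0.0335 in the authors' deposited table), and 4.66 on 32 kPa. An ORR1E copy in intron 4 of Atxn1 had 5.53 against 4.21 (fold 1.33, at an FDR of 0.013 in the authors' deposited table).

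Strong copies were listed for plastic as well. The RMER15 copy upstream of Pwp1 had 7.37 on plastic against 6.34 on 0.2 kPa (fold 1.03), with the lowest FDR of any listed member, 0.000239 in the authors' deposited table. It was at 7.25 on 32 kPa. A MLT1G copy 138.9 kb from Vegfc, a growth factor of lymphatic vessels, had 6.59 against 5.59 (fold 1.0, FDR = 0.00877), and a MLT1G1 copy 386.1 kb from Phex had 6.46 against 5.45 (fold 1.02, FDR = 0.00647), in the authors' deposited table. A MTD copy 21 kb from Dusp1, a phosphatase of MAP kinases, had 5.61 against 4.42 (fold 1.19, at an FDR of 0.0256 in the authors' deposited table). Of the MT2 group, a MT2A copy in intron 2 of Cntn1 had 6.03 against 4.78 (fold 1.25, FDR = 0.0048) and a MT2B2 copy 4.25 kb from Olfr54 had 6.27 against 5.06 (fold 1.21, FDR = 0.00407), both from the authors' deposited table. A MT2A copy 33.9 kb from Incenp had 5.03 against 3.85 (fold 1.17, at an FDR of 0.0499 in the authors' deposited table).

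Some copies stood in both lists, which share the 0.2 kPa libraries, and their values are given side by side only. The LTR53B copy at Sulf1 had a fold of 1.19 on 32 kPa and 1.10 on plastic in the authors' deposited table. The MLT1F2 copy in Fam172a had 1.56 and 1.40, and the MLT1C copy near Atp8b1 1.42 and 1.38, in the authors' deposited table. The MTD copy near Sall3 had 1.43 and 1.33, and that in Slc6a17 1.30 and 1.04, in the authors' deposited table. Other MTD copies in both lists were in the first intron of Trak1 (1.12 and 1.04) and in intron 10 of the myosin light chain kinase gene Mylk3 (1.08 and 1.05), per the authors' deposited table. The internal RMER15 copy near Olfr1402 had 1.52 on 32 kPa and 1.28 on plastic in the authors' deposited table. A LTR75 copy in the first intron of 6030498E09Rik, on the X chromosome, had 1.14 on 32 kPa and 1.32 on plastic in the authors' deposited table, the reverse order of the copies named before it.

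Levels on the culture that a list did not use came from the comparison of plastic with 32 kPa. For the 32 kPa list, 42 of 43 members had a matching region there, with a median of 5.5 on plastic (range 4.61 to 6.84). Plastic minus 32 kPa at these 42 had a median of -0.22, from -0.64 to 0.22. For the plastic list, 61 of 61 were matched, with a median of 5.35 on 32 kPa (4.48 to 7.25), and plastic minus 32 kPa had a median of 0.25, from -0.26 to 0.93. Each list was chosen by a high value on its own culture, so these signs are no independent result. No difference of these sizes passed the authors' FDR.

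Plastic and 32 kPa were close at ERVL and MaLR regions. In the authors' DiffBind comparison 0 of 2090 members passed an FDR of 0.05, against 0% of all 64217 regions, and the lowest FDR was 1. At an unadjusted p under 0.05 there were 19 members (0.909%), against 0.576% of all regions. Of these, 14 were higher on plastic (0.67% against 0.382% of all regions) and 5 on 32 kPa (0.239% against 0.195%). The median of plastic minus 32 kPa was 0.10 over members (quartiles -0.19 and 0.41) and 0.05 over all regions. It was 0.54 for the 160 members with a mean level under 3 and -0.01 for the 47 at 6 or above, against 0.33 and -0.05 over all regions of those levels.

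The widest differences between plastic and 32 kPa were at short regions of very low level. Internal ERVL sequence 16 kb upstream of Nkx3-2 had 3.64 on plastic and 0.48 on 32 kPa (fold 3.16, p = 0.00742, at an FDR of 1 in the authors' deposited table). In the opposite direction an ORR1C2 copy 13 kb upstream of Spred2 had -0.20 on plastic and 2.97 on 32 kPa (fold -3.17, p = 0.0452, FDR = 1) in the authors' deposited table. Both regions were short, at 125 bp and 95 bp. There were 134 members with an absolute fold of at least 1 (6.41%, against 4.68% of all regions). Of these, 64 had a mean level under 3 and 69 between 3 and 4. Such folds were found at 40% and 6.97% of members of those levels, against 34% and 6.77% of all regions. Among members at higher levels the MT2A copy in Cntn1 had the lowest p. It reached 6.02 on plastic against 5.09 on 32 kPa (fold 0.93, p = 0.0126, at an FDR of 1 in the authors' deposited table), and is one of the copies listed for plastic over 0.2 kPa. An ORR1D2 copy 895.9 kb upstream of Got2 had 5.75 on plastic against 4.93 on 32 kPa (fold 0.82, p = 0.0353, FDR = 1) in the authors' deposited table, and was also listed for plastic.

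**Figure D5:**
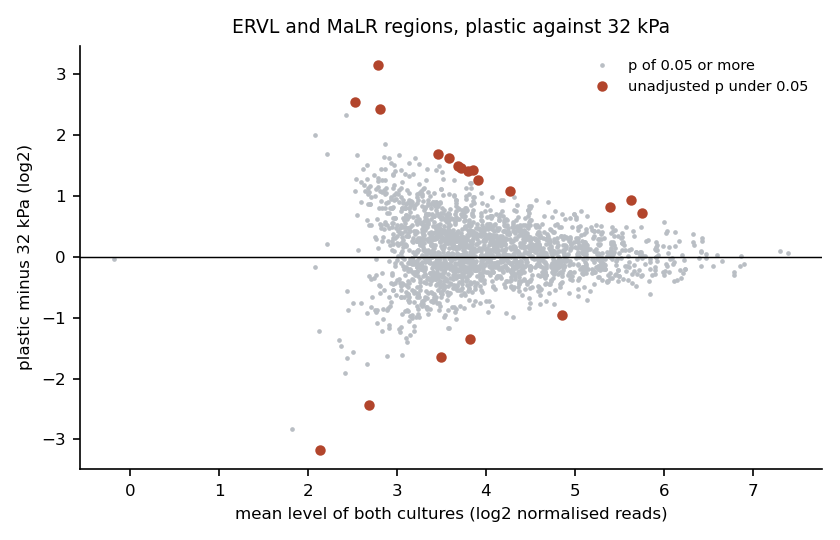
Difference of plastic minus 32 kPa (log2) against the mean level of both cultures (log2 normalised reads) for the 2090 ERVL and MaLR regions, with the 19 at an unadjusted p under 0.05 in red. The spread narrows with level, and none of the 2090 passed an FDR of 0.05.

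Of 16 matrix, 17 contractile, 14 YAP and TAZ target and 15 TGF-beta genes, the members nearest to them numbered 3, 2, 1 and 5, and 0 of these were listed against 0.2 kPa. Together they were 11 of the 451 regions nearest to these genes (2.44%, and 4.46% for TGF-beta alone), against 3.25% of all regions. The highest was a MLT1C copy in an intron of Cald1, the actin-binding caldesmon gene, with 5.02 on plastic and 5.21 on 32 kPa. It alone reached the lowest listed levels of 4.94 on plastic and 4.97 on 32 kPa. The count of 0 listed was thus largely set by level and is no result about these genes. An internal RMER15 copy 43.7 kb from Col3a1 had 4.9 and 4.71, and an ORR1E copy in an intron of Tgfbr3 had 4.56 and 4.20. The 1 listed member near a marker gene was a MLT1F copy 12 kb upstream of Kdr, an endothelial receptor gene, with 5.98 on plastic against 4.93 on 0.2 kPa (fold 1.04, at an FDR of 0.0167 in the authors' deposited table). The part of endothelial cells in it was not tested.

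Genes known to silence or activate these elements were described beside them. All 22 silencing genes had a region, and 21 had a promoter region, with a median promoter level of 5.53. On 32 kPa 3 of the 22 had a listed region, in each case the promoter, and on plastic 1 of 22 did. Among all 18171 genes with a region 10.6% had a listed region on 32 kPa and 10.5% on plastic. Of the 10964 genes with a promoter region, the closer base here, 13.6% and 12.3% had a listed region. A listed promoter was found at 8.53% of these 10964 on 32 kPa and 7.27% on plastic. The counts of silencing genes are thus read as single genes and not as a result about the group. The promoter of Zmym2, a zinc finger gene needed for silencing in the mouse embryo, had 6.32 on 32 kPa against 5.16 on 0.2 kPa (fold 1.16, at an FDR of 0.00726 in the authors' deposited table). Those of Smchd1, a chromatin protein of the silent X chromosome, and Dnmt1, the maintenance DNA methyltransferase, had folds of 1.0 each in the authors' deposited table (FDR = 0.0118 and 0.0443). On plastic the listed region had Rif1, a repressor of these elements in mouse embryonic stem cells, as its nearest gene, but lay 15.5 kb upstream of it just past the annotated transcript end of Tnfaip6 (fold 1.19, at an FDR of 0.0462 in the authors' deposited table). Of 9 genes known to activate MERVL, Nelfa was listed in both comparisons, by its promoter on 32 kPa (fold 1.13, FDR = 0.00651) and by an intergenic region on plastic (fold 1.06, FDR = 0.0228), in the authors' deposited table. Trim28 and Setdb1 had no listed region.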

How the data were processed

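Omni-ATAC-seq libraries were grouped by the culture in their labels. Tools named in the submitters' processing notes are BWA, Picard, MACS2 and DiffBind, with mm10 as build and no versions or settings. The file header of the plastic against 32 kPa table names HOMER's annotatePeaks, whose repeat name for a region was used to choose members. Concentrations and folds were deposited by the authors on a log2 scale, as means per culture, and the p-value and FDR are the authors' deposited ones. The tables of 0.2 kPa name their sides Control and Treat. At intervals shared with the third table, Control equalled the 32 kPa level at 643 of 643 and lay 0.01 to 0.02 above the plastic level at 653, so Control was read as the stiffer culture. One repeated header row was dropped.

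Listing was counted over the regions of the plastic against 32 kPa table that reached the lowest listed level, at an overlap of at least 1 bp. Regions were matched between tables at 50% of both lengths. Starts in the tables of 0.2 kPa were raised by 1 base to match the third table. Introns were given gene names through RefSeq GRCm38.p6 transcripts. Python 3.11.15, pandas 2.3.3 and numpy 2.4.6 were used, and the overlap count was tested on simulated data. Members, gene lists and repeat groups were chosen with earlier results of these data known. Regions named were the members with the largest folds, highest levels or lowest p, those in both lists, those near listed genes and those at RefSeq starts. Motifs were searched in RefSeq start windows, not in the members' own sequence. Level bands, distance classes and the noncoding windows as motif background were chosen after values were seen, and 5 repeat groups and 15 single repeats were looked at in each comparison.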

Additional observations from a re-analysis of the deposited data

How the results depend on the processing

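The stricter FDR and the removal of the level floor moved values most. At an FDR of at most 0.01 the members listed numbered 8 for 32 kPa and 11 for plastic. The same count over all listed regions was not made. The lower quartile of the FDR, rounded, was 0.01 for listed members and for all listed regions in both comparisons. With no floor on the level, 2.01% of members and 3.31% of all regions overlapped a region listed for 32 kPa, and 2.92% and 3.3% one listed for plastic, so the members' share is then below that of all regions in both comparisons. Requiring 50% of both lengths left the members' shares at 13.9% and 18.1%. Leaving out RMER15 or MTA to MTE, chosen after seeing the data, gave 13.9% and 11.1% for 32 kPa and 17.2% and 17.9% for plastic, so that without MTA to MTE the 32 kPa share is below the 12.5% of all regions. The median fold of listed members was 1.08 to 1.13 for 32 kPa and 1.08 to 1.17 for plastic with ERVL alone, MaLR alone or stronger regions only. The median of plastic minus 32 kPa was 0.05 in stronger regions only, against 0.10 over all members. No paired analysis was possible because the tables hold 1 mean per culture, and leaving out single libraries was not run for the same reason. The planned overlap of the lists under a stricter match is not given, since both share the 0.2 kPa libraries.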
